A study of Homo sapiens with 6 samples.

Results

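ERG and 9 other genes of the ETS family of transcription factors, ETV1, ETV4, ETV5, ETS1, ETS2, ELF3, EHF, SPDEF and ELK4, were followed in prostate cancer cells transfected with siRNA against the transcription factor SOX9. Every probe set whose annotated symbol was exactly 1 of these names was taken, which gave 43 probe sets of the 54613 used, for 10 of the 19775 genes with a probe set of their own. Of the 43, 25 passed the filter on dim signal, and they covered 7 of the 10 genes. All arrays were of VCaP, an established prostate cancer line whose genotype is given as TMPRSS2/ERG, grown in DMEM with 10% FBS. The groups were SOX9 siRNA A, SOX9 siRNA B and a non-targeting control siRNA, with RNA collected 72 h after transfection. Each of the 3 groups held 2 arrays, described as biological duplicates, so 6 arrays in all were read, each from 6 ug of total RNA on an Affymetrix Human Genome U133 Plus 2.0 array. All groups share the 1 cell line and its fusion, so nothing here separates cells with the fusion from cells without it.

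ETS factors share a winged helix domain, the ETS domain, that binds DNA at a GGAA core, and the flanking bases and partner proteins help to set which sites each one uses. In many prostate cancers a rearrangement places ERG under the androgen-driven promoter of TMPRSS2, and less often ETV1, ETV4 or ETV5 is activated in a like way. Other members are part of the normal epithelium: SPDEF, EHF and ELF3 are epithelial ETS factors, and ETS1, ETS2 and ELK4 are phosphorylated by MAP kinases and act downstream of growth signals.

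RefSeq promoter windows of GRCh38.p14, which run from 250 bases before to 50 bases after an annotated start, were found for 7 of the 10 members, in 17 windows of 300 bases. Those of ETS1, ETV4 and ETV5 were not matched. The GGAA core, read on both strands, was present in 16 of the 17 windows and in 95.5% of all 35116 windows. The longer ETS site CCGGAAGT, which contains the core, was found in 1 member window, that of ELK4, where it begins 22 bases before the start. It was present in 4.14% of all windows. Of the SOX-type letters, ACAAAG was found in 3 member windows and in 16.1% of all windows, and ACAATG in 5 member windows and in 10.8% of all windows. Some windows of a gene overlap, so these counts share sequence. The windows below are shown because ERG and ELK4 are the members whose values differed most between groups, and ETS2 as a member with several cores. Capitals mark GGAA or its reverse complement TTCC, the whole of CCGGAAGT, and CATTGT, the reverse complement of ACAATG. The downstream ERG window holds 1 CATTGT and the other 3 hold no SOX-type letters. The windows are of the native ERG starts, not of the TMPRSS2 promoter.
ERG, upstream start, chr21:38660618-38660917, minus strand: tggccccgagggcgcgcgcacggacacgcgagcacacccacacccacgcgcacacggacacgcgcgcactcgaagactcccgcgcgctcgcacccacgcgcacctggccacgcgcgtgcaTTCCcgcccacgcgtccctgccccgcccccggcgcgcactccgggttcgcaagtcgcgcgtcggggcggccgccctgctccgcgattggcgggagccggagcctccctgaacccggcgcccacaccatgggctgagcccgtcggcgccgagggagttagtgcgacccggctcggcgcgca
ERG, downstream start, chr21:38498428-38498727, minus strand: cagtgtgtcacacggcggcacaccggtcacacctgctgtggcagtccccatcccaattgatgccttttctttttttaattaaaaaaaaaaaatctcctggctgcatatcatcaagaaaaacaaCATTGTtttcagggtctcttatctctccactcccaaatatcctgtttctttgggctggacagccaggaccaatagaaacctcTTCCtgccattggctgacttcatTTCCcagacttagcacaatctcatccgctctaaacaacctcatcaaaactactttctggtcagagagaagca
ELK4, chr1:205631962-205632261, minus strand: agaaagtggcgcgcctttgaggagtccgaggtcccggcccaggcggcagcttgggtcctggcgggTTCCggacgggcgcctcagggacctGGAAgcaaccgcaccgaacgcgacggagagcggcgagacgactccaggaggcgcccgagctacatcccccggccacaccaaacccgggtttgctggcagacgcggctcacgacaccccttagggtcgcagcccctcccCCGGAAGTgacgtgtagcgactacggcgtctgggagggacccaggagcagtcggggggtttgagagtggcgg
ETS2, chr21:38804933-38805232, plus strand: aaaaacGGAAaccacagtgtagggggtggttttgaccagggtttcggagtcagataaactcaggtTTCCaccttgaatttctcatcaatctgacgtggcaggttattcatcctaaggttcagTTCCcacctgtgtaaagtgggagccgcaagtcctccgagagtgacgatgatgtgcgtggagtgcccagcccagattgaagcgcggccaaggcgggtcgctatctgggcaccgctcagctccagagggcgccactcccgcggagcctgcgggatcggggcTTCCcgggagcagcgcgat

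The values are MAS5 signals, the array intensity of a probe set on a linear scale, and the tests used log2(signal + 16), so a fold change understates that of a dim probe set. Each gene was tested on its brightest probe set if its mean was at or above a signal of 22.0, the median of all probe sets. A gene was called at a limma adjusted p below 0.05 over all 12431 genes tested. Same-numbered arrays of the 2 siRNAs deviated together (correlation 0.63), and those of either siRNA and control only weakly (0.18). A fit with the replicate number as a block, shared by all groups, was therefore run as well. Its adjusted p is given where it changes a call, and can be too small. The 2% trimmed mean signal of an array was lowest in the first siRNA B array, at 143, and highest in the second, at 189. The siRNA A and control arrays lay between 156 and 175. How far this entered the spread of single genes between the siRNA B arrays was not tested. SOX9, the targeted gene, had signals of 1108 and 673 under siRNA A and 609 and 334 under siRNA B, against 1469 and 1126 under control siRNA (probe set 202935_s_at). The log2 fold change was -0.57 for siRNA A and -1.48 for siRNA B, neither called by limma (adjusted p = 0.999 and 0.111). With the replicate number as a block the adjusted p for siRNA B was 1.76e-05. All 8 measured markers of luminal prostate cells passed the filter, with summed signals of 28258 to 32964 under siRNA A, 31288 to 34189 under siRNA B and 30720 to 33157 under control siRNA. None of 4 measured leukocyte markers passed it, with sums of 44.5 to 46.4 under siRNA A, 49.5 to 70.8 under siRNA B and 27.4 to 102 under control siRNA. Of 6 endothelial markers, cells in which ERG is normally active, PECAM1 alone passed, with CDH5, VWF, TEK, KDR and CLDN5 below the filter, and the 6 summed to 58.2 to 111 under siRNA A, 49.4 to 57.1 under siRNA B and 64.7 to 73.3 under control siRNA. PECAM1 itself read 30.7 and 22.9 under siRNA A and 27.3 and 21.9 under siRNA B, below both controls at 34.7 and 41.7, with log2 fold changes of -0.34 and -0.42 (limma adjusted p = 0.999 and 0.674). Of 5 fibroblast markers only COL1A1 passed, and their sum differed between groups: 55.0 to 127 under siRNA A, 255 to 264 under siRNA B and 133 to 164 under control siRNA. COL1A1 had a log2 fold change of -1.05 for siRNA A (limma adjusted p = 0.728, and 0.00993 with the replicate block), 0.68 for siRNA B and -1.73 for siRNA A against siRNA B (limma adjusted p = 0.0574, and 1.66e-07 with the replicate block). The part of either marker in the results below was not tested. In RNA of whole cultures, fewer cells with a transcript and less of it per cell cannot be told apart.

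ERG, the oncogenic member activated by the fusion, was lower under siRNA B than under control siRNA in both arrays of all 4 of its probe sets, while siRNA A arrays lay on both sides of control. Of all tested probe sets, 24.8% had both siRNA B arrays below both controls. No ERG difference passed the test. The brightest probe set, 213541_s_at, read 2726 and 1744 under siRNA A, 1555 and 1353 under siRNA B, and 1901 and 2312 under control siRNA. The mean was 2235 ± 695 under siRNA A, 1454 ± 143 under siRNA B and 2107 ± 291 under control siRNA (SD, n = 2 each). The first siRNA A array was thus above both controls, the second below both, and both siRNA B arrays below every other array.

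For siRNA B the ERG signal stood at 69.4% of control on the scale of the test, a log2 fold change of -0.53 (SE 0.27, 95% interval -1.10 to 0.04, limma adjusted p = 0.495). For siRNA A the log2 fold change was 0.06 (SE 0.27, interval -0.51 to 0.63, limma adjusted p = 0.999). Over both siRNAs it was -0.24 (SE 0.23, interval -0.73 to 0.26, limma adjusted p = 0.882). Between the siRNAs, A against B, it was 0.58 (SE 0.27, interval 0.01 to 1.15), the 1 comparison in which a member gene reached an unadjusted limma p under 0.05 (0.045, adjusted p = 0.591). That difference was 0.26 without the first siRNA A array and 0.90 without the second. Within replicate numbers, siRNA A minus control was 0.52 for the first pair and -0.40 for the second, and siRNA B minus control was -0.29 and -0.77.

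The remaining ERG probe sets had the same outline. Probe set 241926_s_at read 1634 and 1086 under siRNA A, 945 and 807 under siRNA B, and 1270 and 1524 under control siRNA. Probe set 222079_at read 217 and 133 under siRNA A, 97.3 and 89.2 under siRNA B, and 156 and 192 under control siRNA. Probe set 211626_x_at, of a kind that can also bind related transcripts, read 340 and 200 under siRNA A, 135 and 168 under siRNA B, and 225 and 250 under control siRNA. In each of the 4, siRNA B lay below both siRNA A and control with no overlap, and siRNA A overlapped control. Over the 4 probe sets the log2 fold change for siRNA B ran from -0.79 (222079_at, interval -1.41 to -0.17) to -0.53 and that of siRNA A against siRNA B from 0.58 to 0.77. For siRNA A against control it ran from -0.06 to 0.13, with 2 of each sign, and that of 222079_at turned positive with each other scaling of the arrays. In the limma fit over probe sets, 2 of the 25 tested had an unadjusted p under 0.05 for siRNA B, 241926_s_at (limma adjusted p = 0.419) and 222079_at (limma adjusted p = 0.357). For siRNA A against siRNA B 4 did, all of them ERG's, with a lowest limma adjusted p of 0.511. These probe sets read the same RNA, so they are not replicates of one another. The parts of ERG they lie in are not known here, so how much of the signal is fusion transcript cannot be told.

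**Figure D1:**
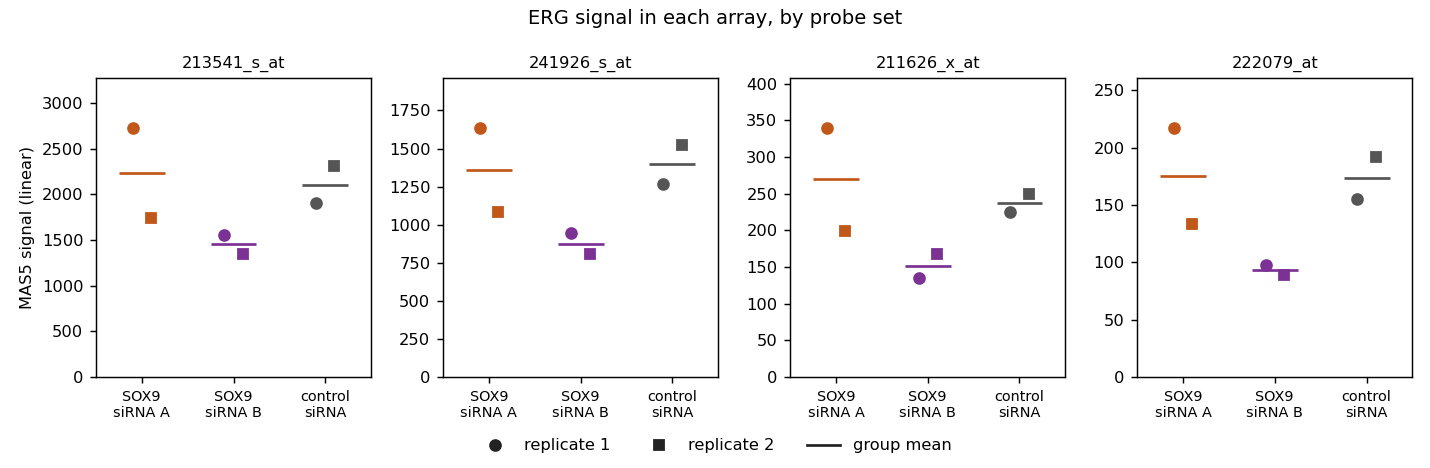
MAS5 signal (linear axis from 0) of the 4 ERG probe sets in each array, by siRNA, with the mean of each group as a line and the replicate number as the marker shape. Both siRNA B arrays lie below all others in every panel, and the siRNA A arrays lie on both sides of the control arrays in 213541_s_at, at 2726 and 1744 against 1901 and 2312.

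TMPRSS2, the androgen-regulated protease gene whose promoter drives ERG in the fusion, had signals of 1818 and 926 under siRNA A, 1124 and 819 under siRNA B, and 1401 and 1317 under control siRNA (226553_at). As for ERG, the siRNA A arrays lay on both sides of control and both siRNA B arrays below it. Its log2 fold change was -0.06 for siRNA A and -0.49 for siRNA B (limma adjusted p = 0.999 and 0.621). Without the first siRNA A array TMPRSS2 had -0.55 for siRNA A, and without the second 0.42. For siRNA B it had -0.72 without the first siRNA B array and -0.27 without the second. Probe set 211689_s_at had the same outline, at 228 and 99.7 under siRNA A, 137 and 127 under siRNA B and 167 and 155 under control siRNA. On 205102_at all groups overlapped: it read 255 and 159 under siRNA A, 183 and 201 under siRNA B and 309 and 195 under control siRNA. Over the 6 arrays TMPRSS2 correlated with ERG at r = 0.89, which ranked 288 of the 12424 tested genes that are not members. The genes most like ERG were NKX3-2 (r = 0.996), SBNO1 (0.991) and GINS4 (0.991). These correlations are across 6 arrays that share 3 treatments and describe a pattern only. NKX3-2, for instance, read 33.1 and 23.9 under siRNA A, 20.9 and 17.9 under siRNA B and 24.5 and 28.9 under control siRNA, near the filter.

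ETV1, ETV4 and ETV5, the members that other prostate cancers activate by rearrangement, gave no probe set above the filter, and dim probe sets were not tested. They had 5, 2 and 5 probe sets. For ETV1 the signals were 0.7 to 23.1 under siRNA A, 0.7 to 21.2 under siRNA B and 0.4 to 38.4 under control siRNA. For ETV4 they were 2.8 to 15.3 under siRNA A, 2.3 to 38.1 under siRNA B and 1.5 to 21.8 under control siRNA. For ETV5 they were 0.7 to 17.4 under siRNA A, 0.8 to 27.0 under siRNA B and 1.2 to 25.1 under control siRNA. Dim signal of this kind does not show that a transcript is absent.

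ETS1 and ETS2, the founding members of the family, each passed the filter. On its 1 probe set above the filter (224833_at), ETS1 read 70.1 and 55.4 under siRNA A, 79.3 and 50.1 under siRNA B, and 81.7 and 77.5 under control siRNA. Both siRNA A arrays were below control, and siRNA B overlapped it. Log2 fold changes were -0.29 for siRNA A (interval -0.90 to 0.33) and -0.27 for siRNA B (interval -0.88 to 0.34). For siRNA B the ETS1 value was -0.53 without the first array and -0.0042 without the second. ETS2 read 114 and 125 under siRNA A, 75.7 and 141 under siRNA B, and 161 and 131 under control siRNA (201328_at). Both siRNA A arrays again lay below control, while the second siRNA B array lay between the controls. The log2 fold change over both siRNAs was -0.34 (SE 0.26, limma adjusted p = 0.824). On the dimmer ETS2 probe set 201329_s_at all 4 SOX9 siRNA arrays, at 36.1 and 39.8 for siRNA A and 34.9 and 58.1 for siRNA B, lay below the control arrays at 64.6 and 60.5. Its log2 fold change over both siRNAs was -0.45, and it was not called.

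ELK4, a ternary complex factor that binds DNA together with SRF, had the highest log2 fold change of the 7 tested members with each siRNA, and was not called. It read 844 and 882 under siRNA A, 544 and 788 under siRNA B, and 521 and 636 under control siRNA (225159_s_at), with means of 863 ± 27.4 for siRNA A, 666 ± 173 for siRNA B and 579 ± 81.2 for control siRNA (SD, n = 2 each). Both siRNA A arrays were above all others, and siRNA B overlapped control. For siRNA A the difference was 0.57 on the log2 scale (SE 0.29, interval -0.05 to 1.19, limma adjusted p = 0.999), or 148% of control, and 0.18 for siRNA B (interval -0.44 to 0.80). Over both siRNAs it was 0.38 (SE 0.25, limma adjusted p = 0.788). All 4 ELK4 probe sets above the filter had positive values for each siRNA, from 0.26 to 0.57 for siRNA A and from 0.07 to 0.41 for siRNA B. These probe sets read the same RNA and are not replicates of one another. On the dimmest, 206919_at, the first siRNA A and siRNA B arrays (15.6 and 14.7) lay below both controls (18.1 and 22.9). On 238761_at the signal was 219 and 332 under siRNA A, 169 and 233 under siRNA B, and 171 and 206 under control siRNA. For siRNA B the value on 225159_s_at was -0.08 without its second array.

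SLC45A3, a prostate-specific transporter gene that neighbours ELK4 on chromosome 1 and is known for read-through transcripts into it, was singled out after its values had been seen. It read 531 and 1466 under siRNA A, 443 and 752 under siRNA B, and 317 and 338 under control siRNA (228696_at), so all 4 SOX9 siRNA arrays lay above both controls. Its log2 fold change was 1.39 for siRNA A and 0.79 for siRNA B, and 1.09 over both (SE 0.34, limma adjusted p = 0.459). With the replicate block the limma adjusted p was 0.000946 over both and 0.000301 for siRNA A. For siRNA B the gene was called only with median centring added to the block (limma adjusted p = 0.0392). Over the median of its probe sets the log2 fold change for both siRNAs was lower, at 0.75 (limma adjusted p = 0.645). The SLC45A3 value for siRNA A was 2.11 without its first array and 0.67 without its second, and for siRNA B 1.16 without its first and 0.42 without its second. Which share of the ELK4 signal comes from read-through RNA was not tested.

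The epithelial members passed the filter on all of their probe sets. EHF, an epithelial factor expressed in luminal cells, read 7822 and 5300 under siRNA A, 7349 and 6404 under siRNA B, and 8000 and 7751 under control siRNA (225645_at). Both siRNA B arrays and the second siRNA A array lay below the controls, and the first siRNA A array lay between them. The log2 fold change over both siRNAs was -0.24 (SE 0.17, interval -0.60 to 0.11, limma adjusted p = 0.798). Every SOX9 siRNA array was below the controls for 10.9% of all tested probe sets and for 2 of EHF's 6. One was 232361_s_at, at 186 and 193 under siRNA A and 219 and 195 under siRNA B, against 255 and 222 under control siRNA. The other, 224189_x_at, differed by only -0.10. SPDEF, a prostate-derived factor of luminal and secretory cells, read 1234 and 1031 under siRNA A, 1180 and 1178 under siRNA B, and 1221 and 1087 under control siRNA (214404_x_at). The log2 fold change over both siRNAs was 0.00 with an interval of -0.48 to 0.48. All 5 SPDEF probe sets had a negative value for siRNA A against control, from -0.52 to -0.01, though the 2 nearest 0, 214404_x_at and 220192_x_at, turned positive under median centring and with a common trimmed mean. Both siRNA A arrays lay below the controls for 22.5% of all tested probe sets and for 2 of SPDEF's 5. These SPDEF probe sets were 214403_x_at, at 46.7 and 40.9 under siRNA A against 47.7 and 75.9 under control siRNA, and 213442_x_at, at 20.3 and 20.9 under siRNA A against 26.4 and 49.1 under control siRNA. All 5 SPDEF probe sets are of the kind that can bind related transcripts. ELF3, which acts in epithelial differentiation and inflammation, read 275 and 283 under siRNA A, 214 and 411 under siRNA B, and 285 and 274 under control siRNA (201510_at). Its siRNA B arrays thus lay on both sides of all others, and the log2 fold change over both siRNAs was 0.04 (interval -0.53 to 0.62).

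**Figure D2:**
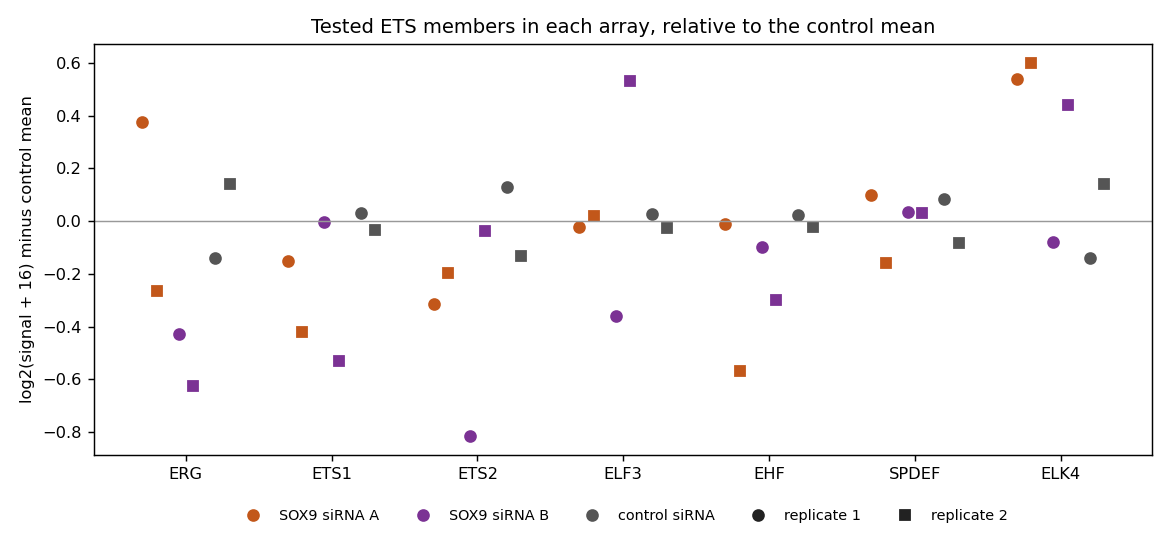
Each tested member in each array, as log2(signal + 16) minus the mean of the control arrays (linear axis), with colour for the siRNA and marker shape for the replicate number. ERG under siRNA B lies below 0 in both arrays, ELK4 under siRNA A above 0 in both, and ETS2 and ELF3 under siRNA B spread widely between replicates.

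Across the 7 tested members limma called 0 genes in each comparison, where 5 of 12431 genes (0.0402%) were called for both siRNAs against control, 0.0161% for siRNA A, 0.185% for siRNA B and 0.0965% for siRNA A against siRNA B. At an unadjusted p under 0.05 the members gave 0, 0, 0 and 1 gene, against 7.76%, 4.72%, 11.3% and 8.23% of all genes in the same order. With the replicate block limma again called 0 members in each comparison, where it called 3.54% of all genes for both siRNAs, 1.8% for siRNA A, 5.89% for siRNA B and 2.9% for siRNA A against siRNA B. The median log2 fold change of the 7 members was -0.24 for both siRNAs, where that of all genes was -0.04. For siRNA A it was -0.03 against -0.05 for all genes, and for siRNA B -0.20 against -0.02. Of the 25 probe sets above the filter, 8 (32%) had both siRNA B arrays below both controls, 4 of them ERG's, where 24.8% of all tested probe sets did. For siRNA A 7 (28%) were below control, against 22.5% of all, and 3 (12%) above it, all ELK4's, against 14.4% of all. Over both siRNAs 3 (12%) were below control, against 10.9% of all, and for siRNA A against siRNA B 6 (24%) were higher, against 16% of all, and 3 (12%) lower, against 14.8% of all. Probe sets of 1 gene read the same RNA, so these shares rest on few genes.

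**Figure D3:**
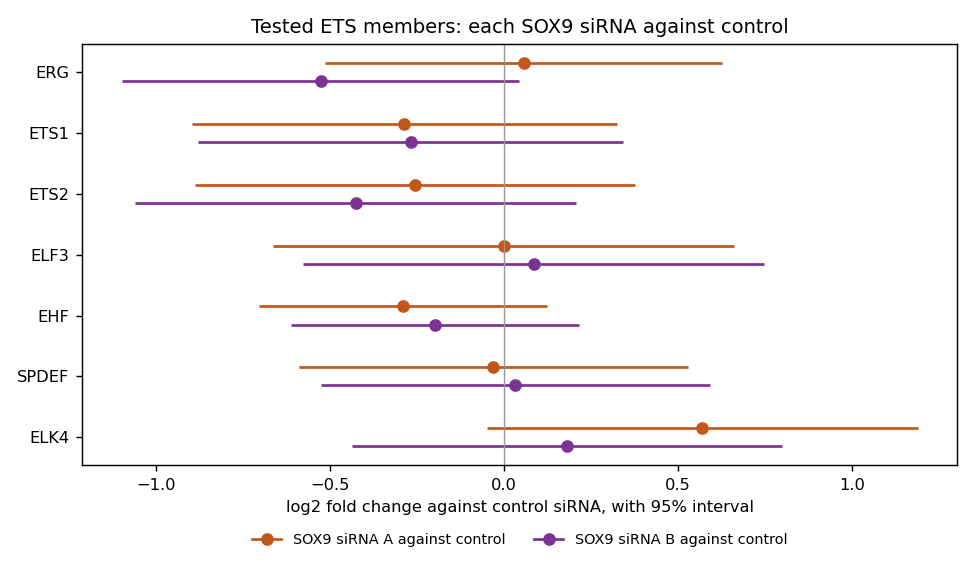
Log2 fold change of each tested member for each SOX9 siRNA against control siRNA, with its 95% interval from limma. Every interval includes 0, and the nearest to leaving it are ERG under siRNA B (-1.10 to 0.04) and ELK4 under siRNA A (-0.05 to 1.19).

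Of the 18 other ETS family genes, 12 were tested and limma called 0 in any comparison. An unadjusted limma p under 0.05 was reached by 11.3% of all genes for siRNA B, 7.76% for both siRNAs and 8.23% for siRNA A against siRNA B. Of the 12, ELK3 alone reached it, in each of these comparisons. Their log2 fold change was negative for 10 of 12 under siRNA A (9 with each other scaling of the arrays) and for 11 of 12 under siRNA B (11 with each), against 56.9% and 52.4% of all genes. The medians were -0.18 and -0.26. ELK3, like ELK4 a ternary complex factor, and one that represses transcription until MAP kinase signals act on it, had the lowest log2 fold change of the 12 for siRNA B and over both siRNAs. It read 460 and 266 under siRNA A, 185 and 123 under siRNA B, and 395 and 557 under control siRNA (221773_at). Both siRNA B arrays were below every other array, and siRNA A overlapped control. For siRNA B ELK3 stood at 34.4% of control, a log2 fold change of -1.54 (SE 0.33, interval -2.23 to -0.85), with a limma adjusted p of 0.0804 that was 4.84e-06 with the replicate block. For siRNA A it was -0.41 and over both siRNAs -0.97 (limma adjusted p = 0.425, and 0.00325 with the replicate block). The difference of siRNA A against siRNA B was 1.13, with a limma adjusted p of 0.243 that was 0.00459 with the replicate block. The other ELK3 probe set, 206127_at, was below the filter in every array, at signals of 0.6 to 12.9.

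Of 24 genes that partner or regulate ETS factors, 22 were tested and limma called 0 in any comparison. SRF, COP1, SPOP, CIC and the GABP subunits were among those with an unadjusted limma p above 0.05 throughout. Those with an unadjusted limma p under 0.05 in some comparison were DUSP4, SPRY1, DET1 and USP9X. Of the 22, 1 was higher and 2 lower for siRNA B, where 11.3% of all genes were under 0.05. For siRNA A against siRNA B 1 was higher and 2 lower, against 8.23% of all genes. Over both siRNAs 1 was lower, against 7.76%, and for siRNA A there were 0, against 4.72%. DUSP4, a phosphatase that inactivates MAP kinases, read 394 and 147 under siRNA A, 114 and 39.5 under siRNA B, and 121 and 183 under control siRNA (204014_at). Its log2 fold change was 0.65 for siRNA A and -0.96 for siRNA B, and the difference of siRNA A against siRNA B was 1.60 (SE 0.42, limma adjusted p = 0.201, and 1.41e-06 with the replicate block). For siRNA A the DUSP4 value was -0.02 without its first array and 1.31 without its second, and for siRNA B -1.57 without its first and -0.34 without its second. SPRY1, an inhibitor of receptor tyrosine kinase signalling, read 233 and 109 under siRNA A, 154 and 81.2 under siRNA B, and 192 and 254 under control siRNA (212558_at). Both siRNA B arrays were below control, at a log2 fold change of -0.88 (SE 0.35, limma adjusted p = 0.354, and 0.0242 with the replicate block). For DUSP4 and siRNA B those values were adjusted p = 0.409 and, with the block, 0.0115. DET1, an adaptor of the ubiquitin ligase that degrades several ETS proteins, had a log2 fold change of 0.64 for siRNA B (limma adjusted p = 0.398) and had -0.67 for siRNA A against siRNA B. USP9X, a deubiquitinase known to stabilise ERG protein, had -0.57 in that comparison. Protein levels were not measured.

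**Figure D4:**
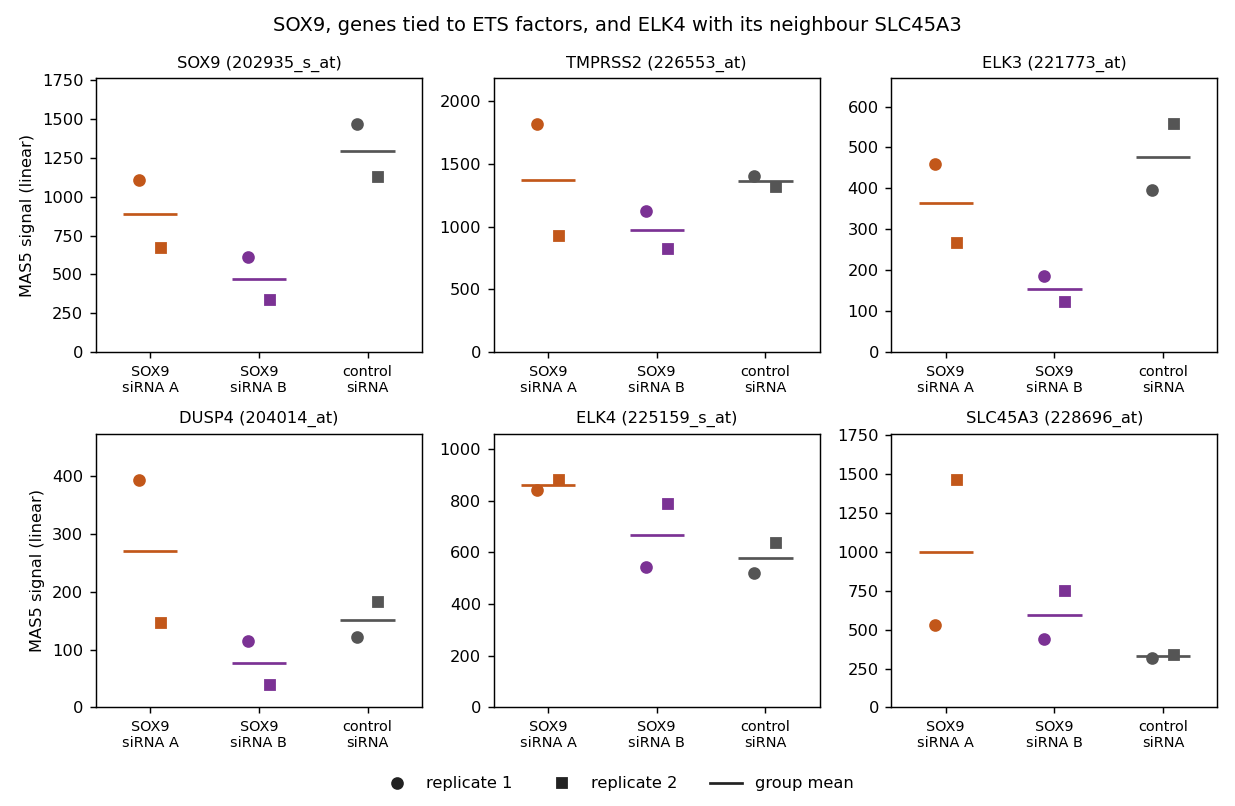
MAS5 signal (linear axes from 0) in each array of SOX9, TMPRSS2, ELK3, DUSP4, ELK4 and SLC45A3, by siRNA, with group means as lines and replicate numbers as marker shapes. ELK3 under siRNA B, at 185 and 123, lies below every other array, and SLC45A3 lies above both controls with each SOX9 siRNA.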

How the data were processed

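Per the labels, total RNA of VCaP cells was hybridised to Affymetrix arrays, and the deposited table holds array intensity, unlogged, as 1 MAS5 signal per probe set, with MAS5 named in the submitters' processing notes. No source used here states the MAS5 version or its target value. The table held 54675 probe sets. After 62 control probe sets were left out, 41091 had 1 gene symbol in the platform annotation, 1801 had several and 11721 none, and those with several were used for no gene.

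The authors' scaling between arrays was kept. Signals were taken as log2(signal + 16). Each gene was taken from its brightest probe set by mean, and genes whose mean log2 value was under 5.25, the probe sets' median, were left out, which left 12431 genes. Tests used limma 3.58.1 (R 4.3.3): lmFit took the 6 arrays as 3 groups, leaving 3 residual degrees of freedom, eBayes used an intensity trend, and Benjamini-Hochberg adjustment ran over all genes, two-sided, with calls below 0.05. Control was set against the siRNAs' mean and against either siRNA alone, and siRNA A against siRNA B, so 3 of the 4 comparisons share their control arrays. The same fit was run over 27307 probe sets, and the script was tested on simulated data. The simulated arrays had independent noise and equal scaling. They therefore cannot show how calls behave where same-numbered arrays deviate together. The p-values rest on the spread between arrays of a group, which limma draws towards a trend over all genes. That trend had a weight of 12.9 prior degrees of freedom beside the 3 residual ones, and the number of arrays limits the precision.

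Arrays with the same number deviated together from their group means, with a correlation of 0.63 for the 2 siRNAs and 0.18 for either siRNA with control. The numbers were therefore treated as pairs in the blocked fit only, from the data and not from a label. The main fit, which gave the other p-values and intervals, held no term for the replicate number. The blocked fit had 2 residual degrees of freedom, and eBayes set all spread to the trend, which can make its p-values too small.

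Named were SOX9, every member, the ETS family genes and the partners or regulators at an unadjusted p under 0.05, TMPRSS2, and the 3 genes most correlated with ERG. The members and lists were chosen with earlier results of these data known. The alternatives were other log offsets, scalings, filters, probe set rules, eBayes settings, thresholds and groups in the fit, the replicate block and leaving out arrays. Promoters were searched for exact letters on both strands.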

Additional observations from a re-analysis of the deposited data

How the results depend on the processing

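No member was called by limma under any alternative in any comparison, over 28 values of the 7 tested members and 594 recomputed values, with 0 to 2 members at an unadjusted p under 0.05. The lowest adjusted p was 0.0652, for ERG under siRNA A against siRNA B under the replicate block with median centring. The sign changed in 37 of the 594, all for values within 0.18 of 0 on the log2 scale. ERG kept its sign for siRNA B (-0.67 to -0.39), for siRNA A against siRNA B (0.26 to 0.90) and for both siRNAs (-0.44 to -0.03), while for siRNA A it was -0.26 without the first siRNA A array and 0.38 without the second. ELK4 under siRNA A ran from 0.30 to 0.71. The number of genes called for both siRNAs against control, 5 as reported, was 9 with a log offset of 64, 9 with a filter at a signal of 100, 1 with probe sets in place of genes, 1 with no intensity trend and 14 at an adjusted p below 0.1. It was 0 with quantile normalization, median centring, a common trimmed mean, no filter or the siRNA arrays as 1 group, where 1117, 1004, 1082, 1225 and 739 genes had an unadjusted p under 0.05. With the replicate block it was 440, and 550 with median centring added. Leaving out arrays gave 0 to 62 genes for 1 array (0 without the second siRNA A or the second siRNA B array, 14 without the first siRNA A array, 62 without the first siRNA B array, 22 without the first control array and 32 without the second), 602 without the first arrays of both siRNAs and 0 without the second ones. For siRNA B against control the 23 genes called, and for siRNA A against siRNA B the 12, were 0 with quantile normalization, median centring or a common trimmed mean (1595 to 1833 and 1300 to 1515 at an unadjusted p under 0.05). Leaving out 1 array gave 0 to 991 for siRNA B, with 991 without its first array and 0 without its second, 0 to 288 for siRNA A against siRNA B and 0 to 18 for siRNA A against control. The causes were not tested. ELK3 under siRNA B was called in 7 of 21 alternatives, among them the replicate block, the filter at 100, and leaving out the first siRNA B array (-1.81) or the first control array, and was -0.70 over the median of its probe sets. The block also changed the calls given in the report for SOX9, SLC45A3, DUSP4, SPRY1 and COL1A1 and no call of a member. It was not the only such setting. DUSP4 for siRNA A against siRNA B was also called when only the compared groups were fitted. Leaving out arrays changed calls of SOX9, SLC45A3, DUSP4 and SPRY1 as well. Fitting the compared groups alone gave no value for both siRNAs, and the siRNA arrays as 1 group gave values for that comparison only. With 2 arrays a group, every 95% interval of a tested member gene against control includes 0, while those of 2 dimmer ERG probe sets do not for siRNA B, and ETV1, ETV4 and ETV5 were too dim to test.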

Other observations

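Among probe sets under the filter, ETV1 206501_x_at was picked out after its values had been seen. It read 3.1 and 4.2 under siRNA A, 2.1 and 3.8 under siRNA B, and 24.8 and 22.0 under control siRNA. On ETV1 217053_x_at all SOX9 siRNA arrays were also below both controls, by less, at 14.5 and 18.0 under siRNA A, 19.0 and 19.2 under siRNA B, and 21.2 and 38.4 under control siRNA. On the remaining ETV1 probe sets the groups overlapped. ETV5 231083_at read 0.9 and 0.8 under siRNA A, 3.1 and 5.4 under siRNA B, and 12.1 and 6.3 under control siRNA. Other dim probe sets had both siRNA A arrays above control. ETV5 203349_s_at read 12.5 and 3.1 under siRNA A, 3.0 and 2.0 under siRNA B, and 2.5 and 2.6 under control siRNA. ELK4 230549_at read 10.0 and 8.1 under siRNA A, 1.2 and 2.4 under siRNA B, and 2.1 and 2.2 under control siRNA. ELK4 1556618_at had both siRNA B arrays below control, at 2.7 and 2.9 against 7.1 and 23.1. So did ETS1 1555355_a_at, at 1.8 and 1.7 against 2.0 and 6.4. ETV5 230102_at had both siRNA A arrays below control, at 0.8 and 0.7 against 2.0 and 1.2. On the other dim member probe sets each siRNA overlapped control. How many of all dim probe sets separate in this way was not counted. None of these was tested, and probe sets of the kind ending in x can bind related transcripts.

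ELK4 206919_at split by replicate number and not by group, at 15.6 and 44.5 under siRNA A, 14.7 and 38.4 under siRNA B, and 18.1 and 22.9 under control siRNA. EHF 222932_at did the same with the first arrays higher, at 133 and 69.8 under siRNA A, 130 and 65.3 under siRNA B, and 153 and 114 under control siRNA. KLK3, an androgen-regulated luminal gene and 1 of the 8 measured luminal markers, also had higher first arrays. It read 2064 and 825 under siRNA A, 1474 and 833 under siRNA B, and 1998 and 1295 under control siRNA. TMPRSS2 likewise had higher first arrays in every group, while SLC45A3 had lower ones. The remaining luminal markers are not given by replicate number here.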
